A study of Mus musculus with 8 samples.

Results

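A set of 10 genes for transcription factors that set lymphoid cell fate was examined in CD4 T cells sorted from mouse spleen. They were the Id genes Id2 and Id3, the E protein gene Tcf12, the HMG-box gene Sox4, the Runt genes Runx1 and Runx3, and the zinc finger genes Bcl11b, Zbtb7b, Gata3 and Ikzf1. Their members on the array were every probe set whose annotation gave 1 of these symbols as its only gene. On this array type a stretch of a transcript is read by a handful of short probes, together named a probe set, and some genes are read by more than 1. The 10 genes, of 12393 with such a probe set, had 23 probe sets of 20380. Sox4 had 6, Runx1 had 5, Id2 had 3, Tcf12 and Zbtb7b had 2 each, and Id3, Runx3, Bcl11b, Gata3 and Ikzf1 had 1 each. The genes were chosen on knockout against wild type differences of these same arrays, in which Id2 and Sox4 had already stood out. Those differences are therefore given as a description, without p-values, and nothing is supported with them. The TCDD comparisons were not used in that choice and are given with their tests.

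The mice were females of 8 to 12 weeks, either deficient for the aryl hydrocarbon receptor gene Ahr after backcrossing to C57BL/6 (KO) or C57BL/6 wild type (WT). The receptor is a transcription factor activated by ligands such as the dioxin TCDD. The groups were KO TCDD, KO DMSO, WT TCDD and WT DMSO: an intraperitoneal dose of 10 µg/kg TCDD, or the solvent DMSO, in corn oil, 24 h before the spleens were taken. Each group had 2 arrays, called biological duplicates, and each array held RNA pooled from 4 animals, so its spread is that between pools. The deleted part of Ahr and the number of backcross generations are not stated in the labels.

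E proteins bind DNA as dimers at E boxes, written CANNTG, and drive lymphocyte development. Id proteins have the helix-loop-helix that pairs with E proteins but no DNA-binding stretch, so an Id partner keeps an E protein off DNA. Sox4, the Runx proteins, Bcl11b, Gata3, Ikaros (from Ikzf1) and ThPOK (from Zbtb7b) act around this axis as T cells commit to their lineage and divide into CD4 and CD8 cells.

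The promoter windows of Id2 and Sox4 are shown because these were the genes with a probe set called between KO and WT. The sequences are from RefSeq (build GRCm38.p6) and run from 250 bases before to 50 bases after the annotated start. Capitals mark the E box CAGCTG and the receptor's core motif GCGTG, on either strand, and the 2 motifs do not overlap here.
Id2, chr12:25096043-25096342, minus strand: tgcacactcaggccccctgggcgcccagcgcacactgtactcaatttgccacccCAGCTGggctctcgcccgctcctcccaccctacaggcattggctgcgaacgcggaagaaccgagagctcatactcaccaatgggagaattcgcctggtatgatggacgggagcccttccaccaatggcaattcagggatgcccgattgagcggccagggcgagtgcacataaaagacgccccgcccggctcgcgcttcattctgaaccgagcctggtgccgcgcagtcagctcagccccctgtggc
Sox4, chr13:28953650-28953949, minus strand: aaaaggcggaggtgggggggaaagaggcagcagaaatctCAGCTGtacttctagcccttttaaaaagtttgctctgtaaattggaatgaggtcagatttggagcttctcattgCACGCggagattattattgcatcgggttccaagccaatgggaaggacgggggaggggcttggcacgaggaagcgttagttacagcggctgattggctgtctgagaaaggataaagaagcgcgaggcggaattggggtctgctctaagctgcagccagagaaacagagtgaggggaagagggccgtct
The Id2 window held 1 CAGCTG, 196 bases before the start, and no GCGTG. The Sox4 window held 1 CAGCTG, 211 bases before the start, and 1 GCGTG on the opposite strand, 137 bases before it. The 10 genes had 16 windows, of which 4 held CAGCTG, 31.2% GCGTG and 68.8% any CANNTG, a pattern that includes CAGCTG. Of all 32851 mouse windows of this length, 16.3% held CAGCTG, 32.4% GCGTG and 72.3% any CANNTG. These are matches of letters and show neither binding nor a cause. Id2 lies on the chromosome of Ahr with 46 protein-coding genes between the genes, and Bcl11b on the same chromosome with 423 between.

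All values below are deposited log2 expression values, so a difference of 1 is a 2-fold difference. They ranged from 3.53 to 14.61 over the 8 arrays, and the median of all probe set means was 6.13. Levels of different probe sets cannot be set against each other. For the labelled cell type, Cd3e read 9.36 ± 0.17 over the KO arrays against 9.53 ± 0.09 over the WT arrays, and Cd4 8.16 ± 0.09 against 8.37 ± 0.28 (SD, 4 of each). Signal was thus present for defining T cell genes, which does not show how pure the cells were. Ahr was measured by 2 probe sets, whose place relative to the deletion is not stated, so they do not check the genotype. The first averaged 6.74 ± 0.26 over the KO arrays against 6.21 ± 0.10 over the WT arrays, and the second 6.52 ± 0.23 against 6.48 ± 0.14 (SD, 4 of each). For WT TCDD replicate 1 the free-text description says knockout. Its title, source and strain all say wild type, and it stands among the WT arrays here. The log2 difference between the 3′ and 5′ actin control probe sets is a sign of RNA quality, larger where RNA is more degraded. It was 3.48 to 3.82 on the KO arrays. It was lowest on WT TCDD replicate 2 (3.30) and WT DMSO replicate 2 (2.90). On the WT arrays numbered 1 it was 4.56 (TCDD), the highest of all, and 3.70 (DMSO).

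Id2, the inhibitor that natural killer cells, innate lymphoid cells and several dendritic cells depend on, was called higher in KO by 1 of its 3 probe sets. That probe set, 1435176_a_at, read 10.66 and 10.03 in KO TCDD, 10.74 and 10.49 in KO DMSO, 8.88 and 9.84 in WT TCDD and 9.48 and 9.38 in WT DMSO (replicates 1 and 2). Every KO array lay above every WT array, with KO TCDD replicate 2 at 10.03 closest to WT TCDD replicate 2 at 9.84. The means were 10.48 ± 0.32 for the KO arrays against 9.39 ± 0.40 for the WT arrays (SD, 4 of each), a difference of 1.08 (SE 0.22), or 2.12-fold. It was 0.98 between the TCDD arrays and 1.18 between the DMSO arrays. Leaving out any 1 of the 8 arrays ended the call, with differences from 0.91 (without WT TCDD replicate 1) to 1.24. In RNA of a sorted population, more cells of a type and more RNA per cell cannot be told apart. The other Id2 probe sets did not follow it. The probe set 1422537_a_at read 7.65 and 7.38 in KO TCDD, 7.58 and 7.65 in KO DMSO, 7.27 and 8.40 in WT TCDD and 7.54 and 7.35 in WT DMSO, so the groups overlapped and WT TCDD replicate 2 was the highest of all. The difference was −0.07 (SE 0.23). For 1453596_at the values were 6.1 and 5.81 in KO TCDD, 5.78 and 4.90 in KO DMSO, 6.05 and 6.33 in WT TCDD and 6.07 and 6.17 in WT DMSO, with KO DMSO replicate 2 the lowest and a difference of −0.51 (SE 0.23). The genotypes also overlapped there, and the sign was opposite to that of 1435176_a_at.

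Id3, the Id gene induced by T cell receptor signals, had 1 probe set and was not called. It read 6.69 and 6.30 in KO TCDD, 6.33 and 5.76 in KO DMSO, 6.31 and 7.05 in WT TCDD and 6.82 and 6.92 in WT DMSO. Only WT TCDD replicate 1 lay among the KO arrays, and KO DMSO replicate 2 was the lowest. The difference was −0.51 (SE 0.22), larger between the DMSO arrays (−0.82) than between the TCDD arrays (−0.18).

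Tcf12, which encodes the E protein HEB of thymocyte development, gave different readings from its 2 probe sets. On 1427670_a_at it read 8.20 and 8.24 in KO TCDD, 8.75 and 8.03 in KO DMSO, 8.98 and 9.70 in WT TCDD and 9.08 and 9.99 in WT DMSO. Every KO array lay below every WT array, and in each treatment the WT array numbered 2 was above number 1. With means of 8.30 ± 0.31 for the KO arrays against 9.44 ± 0.49 for the WT arrays (SD, 4 of each), the difference was −1.13 (SE 0.25), or 2.19-fold lower, and it was just outside the call. Without both WT arrays numbered 2 it was −0.72. It was −1.12 between the TCDD arrays and −1.14 between the DMSO arrays. The second probe set, 1421908_a_at, read between 7.04 and 7.13 in KO and between 6.92 and 7.67 in WT, with overlapping groups and a difference of −0.16 (SE 0.15).

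**Figure D1:**
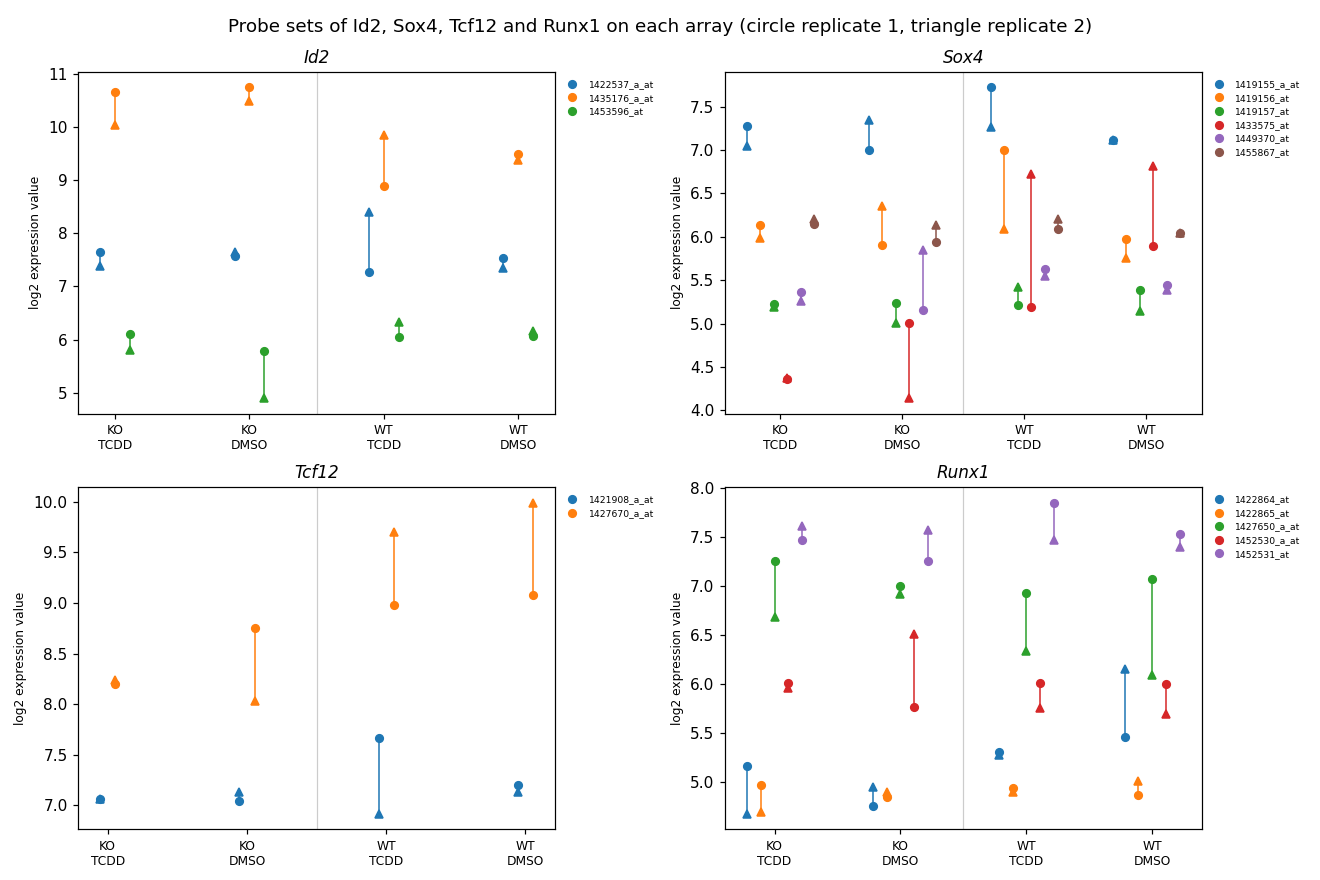
Deposited log2 expression value (y axis) of each probe set of Id2, Sox4, Tcf12 and Runx1 on the 8 arrays, by group (x axis), 1 colour per probe set; circles are replicate 1, triangles replicate 2, and a line joins the 2 arrays of a group. The KO arrays lie above all WT arrays for Id2 1435176_a_at and below all WT arrays for Sox4 1433575_at, Tcf12 1427670_a_at and Runx1 1422864_at, while the other probe sets of these genes overlap between genotypes.

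Sox4, a transcription factor of lymphoid progenitors that TGF beta induces in CD4 T cells, was called lower in KO by 1 of its 6 probe sets. The probe set 1433575_at read 4.36 and 4.37 in KO TCDD, 5.01 and 4.14 in KO DMSO, 5.19 and 6.72 in WT TCDD and 5.89 and 6.81 in WT DMSO. All KO arrays were below all WT arrays, and the WT arrays numbered 2 were the highest. The means were 4.47 ± 0.38 for the KO arrays against 6.15 ± 0.76 for the WT arrays (SD, 4 of each), a difference of −1.68 (SE 0.36), or 3.21-fold. It was −1.59 between the TCDD arrays and −1.77 between the DMSO arrays. The call ended on leaving out any of 6 of the 8 arrays, with values from −2.0 (without WT TCDD replicate 1, still called) to −1.46 (without WT DMSO replicate 2). Without both WT arrays numbered 2, which also had the lowest actin differences, it was −1.07 and not called. After centring each array on its median it was −1.67, close to the value above, but no longer called. With the actin difference as a covariate over all 8 arrays it was still called. The KO mean of 4.47 and the WT mean of 6.15 lie under and close to the median probe set mean.

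The other 5 Sox4 probe sets overlapped between genotypes, with differences from −0.14 (1419155_a_at) to 0.01 (1455867_at). The probe set 1419155_a_at read 7.27 and 7.04 in KO TCDD, 7.0 and 7.34 in KO DMSO, 7.72 and 7.26 in WT TCDD and 7.11 and 7.12 in WT DMSO, with WT TCDD replicate 1 the highest. On 1419156_at that array also stood highest, at 7.0, against 5.91 to 6.35 in KO and 5.76 to 6.09 on the other WT arrays. Thus the 6 probe sets for 1 gene did not give 1 reading of Sox4, and which stretch of the transcript each one reads is not stated in the labels.

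Runx1, which acts from blood stem cells to naive CD4 T cells, had 5 probe sets, none called. On 1422864_at it read 5.16 and 4.68 in KO TCDD, 4.76 and 4.95 in KO DMSO, 5.31 and 5.28 in WT TCDD and 5.46 and 6.15 in WT DMSO. The KO arrays all lay below the WT arrays, with WT DMSO replicate 2 the highest, and the difference was −0.66 (SE 0.20), −0.38 between the TCDD arrays and −0.95 between the DMSO arrays. The other 4 overlapped between genotypes. They differed by 0.35 (1427650_a_at), 0.20 (1452530_a_at), −0.07 (1422865_at) and −0.09 (1452531_at). On 1427650_a_at both WT arrays numbered 2, at 6.34 and 6.09, lay below all KO arrays, at 6.68 to 7.25, and the WT arrays numbered 1 did not. Runx3, which silences Cd4 in the CD8 lineage, read 6.47 to 6.64 in KO and 6.59 to 6.78 in WT, a difference of −0.12 (SE 0.07).

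Bcl11b, the zinc finger factor of T lineage commitment, read 10.15 and 9.92 in KO TCDD, 9.90 and 9.81 in KO DMSO, 9.59 and 9.54 in WT TCDD and 9.88 and 9.43 in WT DMSO. Only WT DMSO replicate 1 reached into the KO range, and the difference was 0.34 (SE 0.12), not called. Zbtb7b, whose product ThPOK directs cells to the CD4 lineage, read 7.73 and 7.81 in KO TCDD, 7.63 and 7.75 in KO DMSO, 7.59 and 7.38 in WT TCDD and 7.61 and 7.28 in WT DMSO on 1420663_at. Here the KO arrays all lay above the WT arrays, the closest being 7.63 in KO and 7.61 in WT, and the difference was 0.27 (SE 0.09). Its other probe set, 1455071_at, differed by −0.04 (SE 0.08) with overlapping groups.

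Gata3, needed for CD4 T cell development and Th2 cells, read 6.83 and 6.66 in KO TCDD, 7.33 and 6.81 in KO DMSO, 6.63 and 7.10 in WT TCDD and 6.88 and 6.86 in WT DMSO, with overlapping groups and a difference of 0.04 (SE 0.16). Ikzf1, the Ikaros gene that lymphoid progenitors need, read 6.83 and 6.57 in KO TCDD, 6.58 and 6.94 in KO DMSO, 6.88 and 6.73 in WT TCDD and 6.58 and 6.50 in WT DMSO, a difference of 0.06 (SE 0.12). Its arrays of either genotype spread over the same range.

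**Figure D2:**
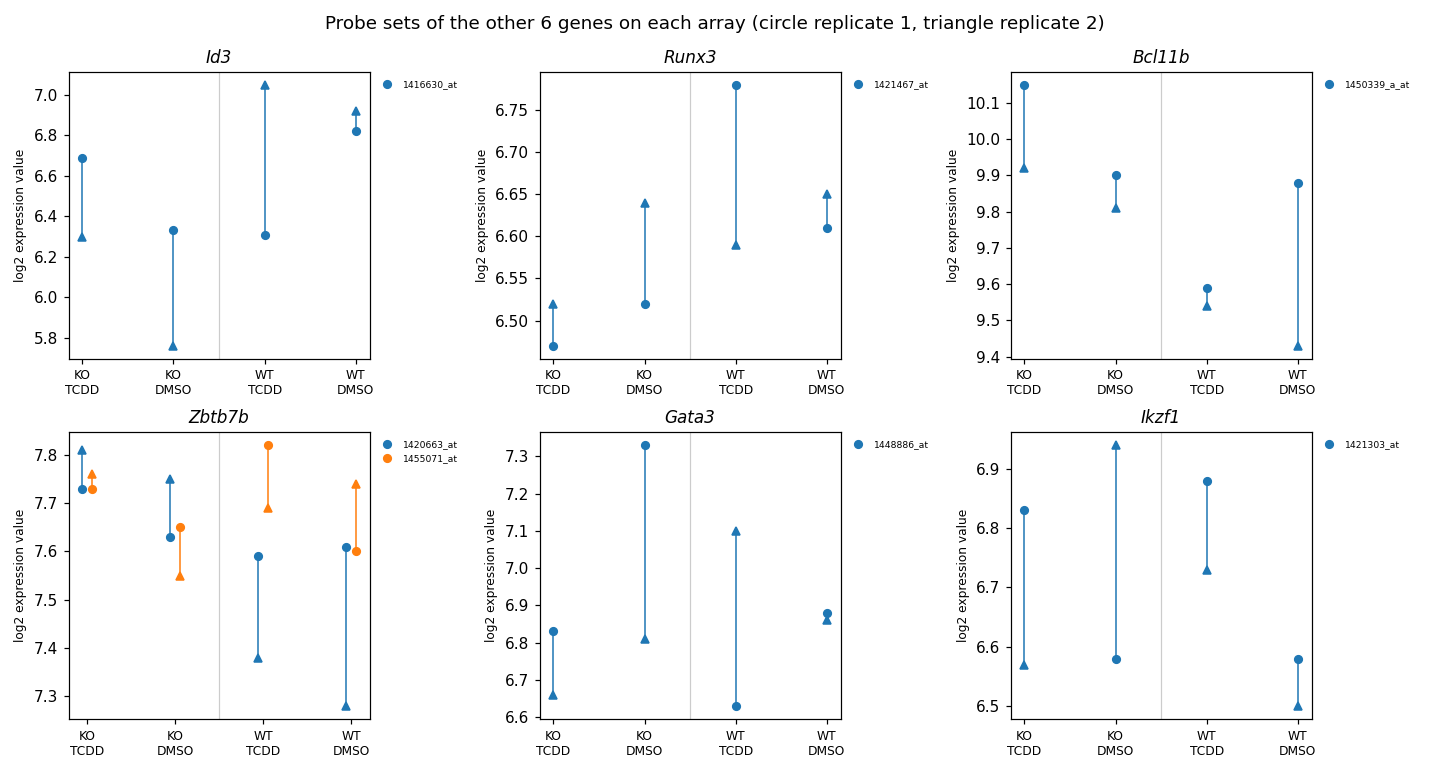
Deposited log2 expression value (y axis, scaled to each gene) of each probe set of Id3, Runx3, Bcl11b, Zbtb7b, Gata3 and Ikzf1 on the 8 arrays, by group (x axis); circles are replicate 1, triangles replicate 2, and a line joins the 2 arrays of a group. The genotypes overlap for all of these probe sets except 1420663_at of Zbtb7b, where the KO arrays lie at 7.63 to 7.81 and the WT arrays at 7.28 to 7.61.

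Over the 23 probe sets, 8 were higher and 15 lower in KO, with a median difference of −0.09, against −0.01 over all 22626 probe sets tested. A probe set was called at an adjusted p under 0.05 in limma's fit over all of them. By that rule 2 of the 23 were called, Id2 higher and Sox4 lower, where the background was 2.79% of all probe sets, 1.59% higher and 1.2% lower in KO. In 2 of the 23 all KO arrays lay above all WT arrays (background 5.67%), and in 3 all lay below (background 6.67%). These shares stand beside a choice made on the same contrast, so nothing is read from them. Of the 23, 8 had means under the median of all probe set means. The SD within a genotype ran from 0.04 to 0.52 in KO and from 0.06 to 0.76 in WT, and was larger in WT for 14 of 23, against 54.1% of all probe sets.

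**Figure D3:**
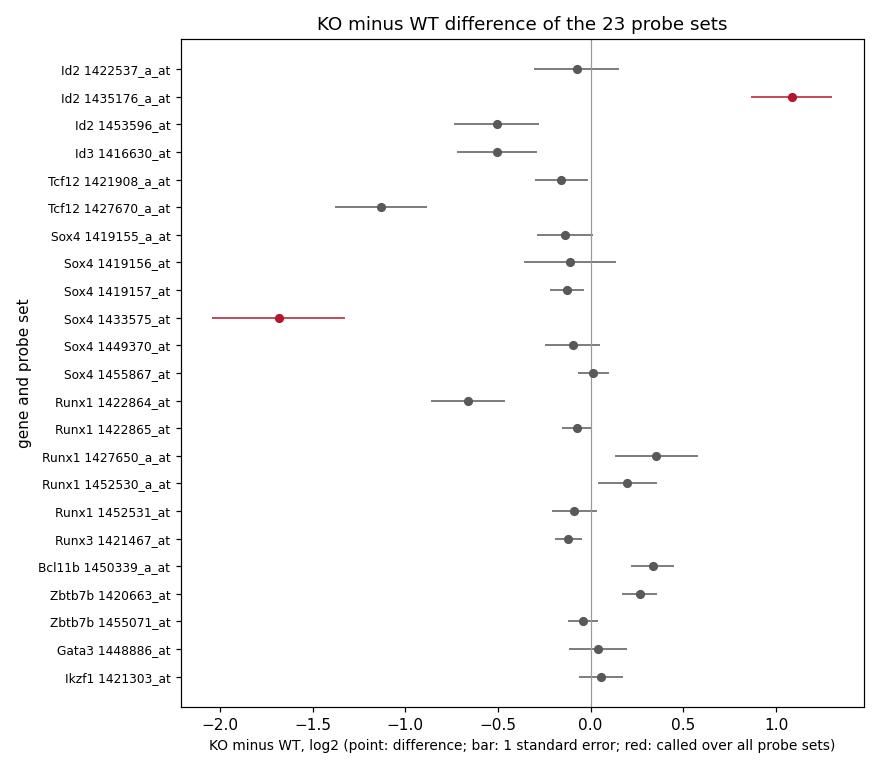
KO minus WT difference on the log2 scale (x axis) for each of the 23 probe sets (y axis), over 4 arrays of each genotype; points are the differences, bars 1 standard error from limma, and red marks the 2 probe sets called over all 22626. Id2 1435176_a_at at 1.08 and Sox4 1433575_at at −1.68 lie at opposite ends, and probe sets of the same gene are spread between them.

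TCDD for 24 h gave no called change in any of the 10 genes, in either genotype (n = 2 arrays a group). In KO, 0 of the 23 probe sets were called (background 0.0%, 0 of 22626). Of the 23, 0 had an unadjusted p under 0.05, against 383 of all 22626, too small a share for this to be read as a contrast. Their differences from DMSO ran from −0.33 to 0.61 with a median of −0.03. The farthest from 0 was Id2 on 1453596_at, 0.61 (SE 0.29; limma, BH adjusted p = 1.0), where KO DMSO replicate 2 was the low array. Id3 read 0.45 (SE 0.30) and Gata3 −0.33 (SE 0.22) relative to DMSO.

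In WT, 0 of the 23 were called as well (background 0.0%), and 0 had an unadjusted p under 0.05, as 631 of all probe sets did. The differences ran from −0.51 to 0.68, with a median of 0.06. Sox4 on 1419156_at read 0.68 (SE 0.31) and on 1419155_a_at 0.38 (SE 0.20), while on 1433575_at, the one called between genotypes, it read −0.40 (SE 0.56; limma, BH adjusted p = 0.997 for all 3). WT TCDD replicate 1 was the highest of the 8 arrays on the first and the second of these. Runx1 on 1422864_at read −0.51 (SE 0.26), Id2 on 1435176_a_at −0.07 (SE 0.34) and Ikzf1 0.27 (SE 0.16).

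The TCDD effects were compared between genotypes by an interaction, the effect in KO minus that in WT. None of the 23 was called (background 0.0%; limma, BH adjusted p = 0.998 for each), and 0 had an unadjusted p under 0.05, as 628 of all probe sets did. The values ran from −0.75 (SE 0.43) for Sox4 on 1419156_at to 0.64 (SE 0.42) for Id3. With 2 arrays a group the standard errors of the TCDD differences ran from 0.11 to 0.56, so these values do not show that the genes did not respond.

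**Figure D4:**
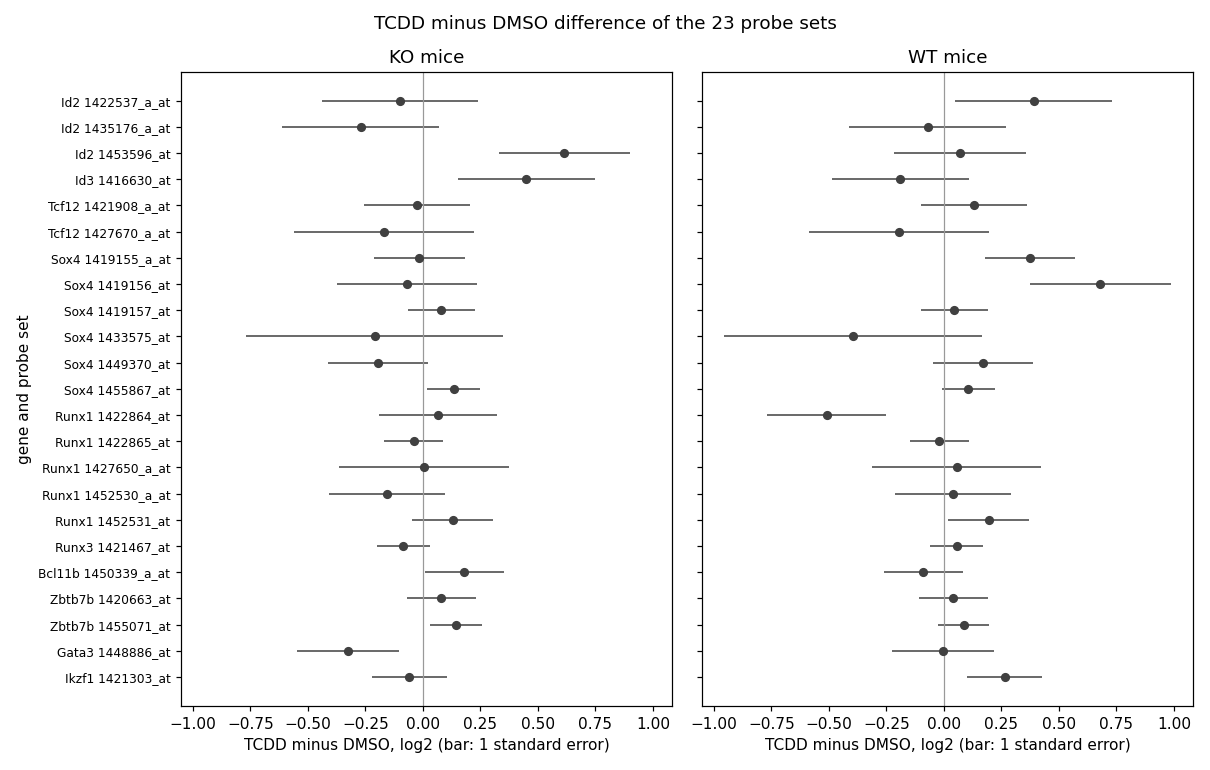
TCDD minus DMSO difference on the log2 scale (x axis) for each of the 23 probe sets (y axis), in KO mice (left) and WT mice (right), over 2 arrays a group; points are the differences and bars 1 standard error from limma. No probe set was called in either genotype, and the values lie between −0.33 and 0.61 in KO and between −0.51 and 0.68 in WT.

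Relatives and partners of these factors were examined as a list of 44 genes, of which 39 were measured, each by its brightest probe set. This list and those below were made with earlier results of these data known. Their calls and adjusted p-values between genotypes are therefore a description. Of these, 2 were called higher in KO and 0 lower, against 3.24% called over all 12393 genes. Called or not, 17 read higher and 22 lower, and the list's median was −0.05, against 0.01. Both that were called are known from plasmacytoid dendritic cells. Tcf4, the E protein E2-2 that these cells require, read 7.45 and 8.58 in KO TCDD, 7.95 and 8.45 in KO DMSO, 6.69 and 6.25 in WT TCDD and 6.77 and 5.92 in WT DMSO, a rise of 1.70 (SE 0.28; limma, BH adjusted p = 0.0261). That probe set is of the _x_at kind, whose probes can also match other transcripts. Of its 6 probe sets 3 were called, all higher, including 1416723_at, by 1.80 (limma, BH adjusted p = 0.00793). Bcl11a, the relative of Bcl11b used by B cells and plasmacytoid dendritic cells, read 7.02 and 7.86 in KO TCDD, 6.96 and 7.51 in KO DMSO, 5.95 and 5.72 in WT TCDD and 5.96 and 5.44 in WT DMSO. It rose by 1.57 (SE 0.21; limma, BH adjusted p = 0.0142). Its call held on leaving out each of the 8 arrays. That of Tcf4 on its brightest, _x_at probe set ended in 4 of 8, each an array numbered 2. Without both WT arrays numbered 2, the differences were 1.38 for that Tcf4 probe set and 1.38 for Bcl11a, and neither was called. A model of 4 group means on all 8 arrays called neither of them. These fits are not reported here for the other Tcf4 probe sets.

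The other E protein gene measured, Tcf3, read −0.05 (limma, BH adjusted p = 0.825), and Id1 −0.15 (limma, BH adjusted p = 0.629), both named after their values were seen. Of the 4 brightest in the list, Ets1 read −0.05, Notch1 −0.18, Elf1 0.24 and Myb −0.60, none called. Cbfb, the partner of all Runx proteins, averaged 7.95 ± 0.43 over the KO arrays against 9.62 ± 1.11 over the WT arrays (SD, 4 of each), a difference of −1.67 that was not called (SE 0.50; limma, BH adjusted p = 0.109), with overlapping groups. It is named here because of its values.

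Known targets and lineage genes of the 10 factors formed a list of 24, of which 23 were measured. Of these 2 were called higher and 0 lower, against 3.24% called over all 12393 genes. Called or not, 15 read higher and 8 lower, and the list's median was 0.08, against 0.01. Cxcr5, the homing receptor of B cells and follicular helper T cells, rose by 0.63 (SE 0.11; limma, BH adjusted p = 0.0332). The terminal transferase gene Dntt, active in developing lymphocytes, rose by 0.49 on 1 of its 3 probe sets, also of the _x_at kind (SE 0.10; limma, BH adjusted p = 0.0445). The call of Cxcr5 ended in 6 and that of Dntt in all 8 of the 8 fits that left out 1 array, and the model of 4 group means called neither. Among the 4 brightest, Il7r, the interleukin 7 receptor, averaged 10.63 ± 0.15 over the KO arrays against 11.27 ± 0.35 over the WT arrays (SD, 4 of each; difference −0.64, limma, BH adjusted p = 0.0794). Cd5 read 0.90 (limma, BH adjusted p = 0.0644), Socs3 0.08 and Cd3e −0.16. Rag1 and Rag2, recombinase genes of immature lymphocytes, and the CD8 chains Cd8a and Cd8b1 were not called. The differences were 0.08 for Rag1, −0.01 for Rag2, −0.15 for Cd8a and 0.08 for Cd8b1, named after their values were seen. None of either list was called for TCDD or for the interaction.

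Of the marker lists of other cell types, some held many genes called between genotypes and some none, where 3.24% of all 12393 genes were called. Of 8 measured plasmacytoid dendritic cell genes (Tcf4 among them) 7 were called higher in KO, among them Irf8 by 2.97 and Spib by 1.66. The 1 not called was Pacsin1 (−0.01). The summed level of the 8, as log2 of the added linear values, was 11.50 to 12.02 in KO and 9.95 to 10.44 in WT. Of 13 conventional dendritic cell and macrophage genes 7 were called higher, with sums of 11.7 to 12.4 in KO and 10.5 to 10.8 in WT. Those not called were Itgax (0.37), C1qa (0.75), Lyz2 (0.13), Adgre1 (0.16), Cd14 (−0.07) and Batf3 (0.60). Of 11 natural killer and CD8 T cell genes 1 was called higher (Nkg7), with sums of 10.54 to 11.04 in KO and 10.17 to 10.58 in WT. B cell genes (9 measured), erythroid genes (4) and granulocyte genes (8) had 0 calls. Their sums were 9.22 to 9.71, 7.87 to 8.60 and 9.28 to 9.59 in KO, against 9.08 to 9.51, 7.68 to 8.11 and 9.20 to 10.05 in WT. The 8 T cell genes summed to 13.01 to 13.27 in KO and 12.62 to 13.22 in WT. Of the defining plasmacytoid dendritic cell markers, Siglech was not measured. The part of other cells in the Id2 difference was not tested.

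**Figure D5:**
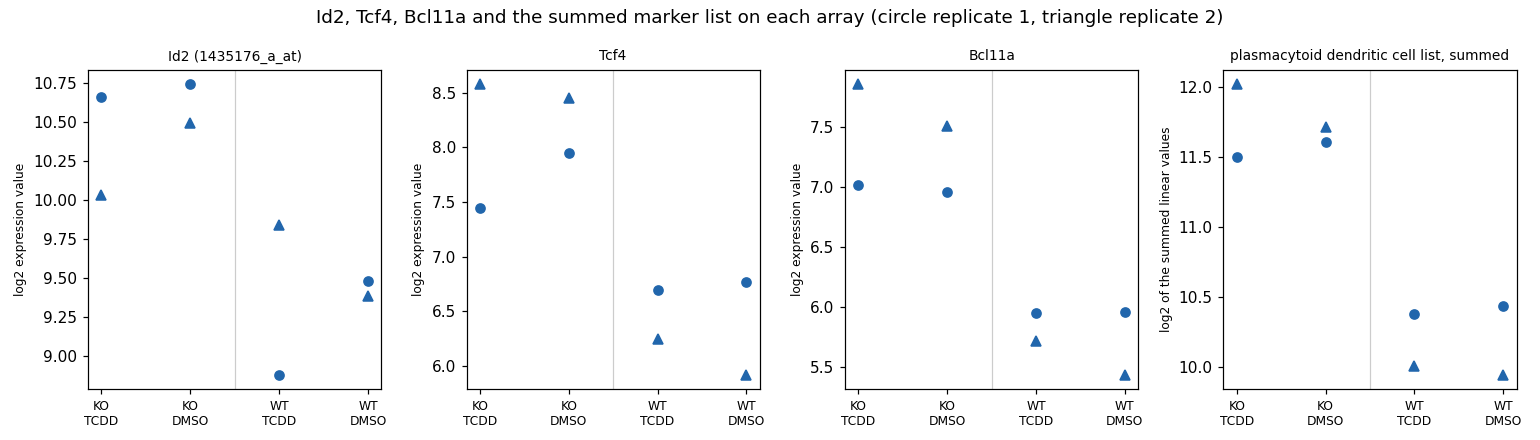
Values on the 8 arrays by group (x axis): log2 expression value of Id2 (1435176_a_at), Tcf4 and Bcl11a (brightest probe sets), and log2 of the summed linear values of 8 plasmacytoid dendritic cell genes; circles are replicate 1 and triangles replicate 2, and each y axis has its own range. All 4 KO arrays lie above all 4 WT arrays in each panel, and KO TCDD replicate 2 is the highest KO array for Tcf4, Bcl11a and the summed list but the lowest for Id2.

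The genes whose brightest probe sets ran most like the brightest of Id2 over the 8 arrays were Tax1bp3 (Pearson r = 0.971), Polr3d (0.968) and Inppl1 (0.957). With genotype means removed their r was 0.875, 0.863 and 0.853. For the brightest Sox4 probe set, 1419155_a_at, which was not the one called, they were Slc8a3 (0.979), Ppp1r1b (0.971) and Dkk1 (0.958), and r was 0.980, 0.968 and 0.952 with genotype means removed. The Sox4 probe set read 7.72 on WT TCDD replicate 1 and 7.0 to 7.34 on the other arrays. How far that array alone set these r values was not tested. The genotype means of Slc8a3 and Dkk1 lay under the median of all probe set means. All these r values are descriptions over 8 arrays that share genotype, treatment and normalization, picked as the highest among the brightest probe sets of all other genes.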

How the data were processed

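RNA of splenic CD4 T cells was hybridised to 8 Affymetrix arrays, 2 in each of 4 groups, each array from RNA pooled over 4 mice. The authors deposited log2 expression values that, per the submitters' processing notes, were made with RMA (affy), which corrects background, quantile-normalizes and summarises probes. Precision is limited by the number of arrays. The file held 22690 probe sets, of which 64 controls were left out. The other 22626 were fitted without a filter in limma 3.58.1 (R 4.3.3; lmFit, eBayes) and adjusted by Benjamini-Hochberg over all of them, with an adjusted p under 0.05 called. KO against WT used 4 arrays of each genotype, pooling treatments as the series design does. TCDD contrasts and the interaction came from a model of 4 group means. Gene symbols are those of the platform annotation, and the Entrez IDs of all 10 members matched RefSeq. Companion, target and marker genes are represented by their probe set with the highest mean.

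The members and lists were chosen with earlier results of these data known. The text names all members, the companion and target genes called between genotypes and the 4 brightest of each of those lists. It also names some of the marker genes, and the 3 genes most correlated with Id2 and with Sox4. Exceptions are named as such. The fitting code was run on simulated data. The noise there was independent between arrays, so those runs do not cover the likeness of same-numbered WT arrays described below. Array pairs correlated at 0.937 to 0.992. Replicates are biological duplicates, per the labels. Alternatives covered normalization, dim probe sets, variance settings, array weights, blocks, a covariate, thresholds and left-out arrays.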

Additional observations from a re-analysis of the deposited data

How the results depend on the processing

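Counts between genotypes are given in the order of the 23 probe sets, the relatives and partners, and the targets, which had 2, 2 and 2 calls. They fell to 0, 0 and 0 with the DMSO arrays alone, with the TCDD arrays alone and without both WT arrays numbered 2, each a fit on fewer arrays. They were 0, 0 and 1 in a model of 4 group means, 3, 9 and 3 with the actin difference as a covariate, 3, 6 and 2 with array weights, and 2, 5 and 2 with dim probe sets left out. They were 3, 5 and 2 after a second quantile normalization, 1, 3 and 2 with median centring, 2, 3 and 1 with trend and robust settings, and 3, 6 and 4 at an adjusted p under 0.1. Without 1 array at a time they ran from 0 to 2, from 1 to 4 and from 0 to 2. Equal counts were not always the same genes. The 1 target called with 4 group means was Cd5. With dim probe sets left out, the 2 of the 23 called were Id2 1435176_a_at and Tcf12 1427670_a_at. Without WT DMSO replicate 1, the 2 targets were Cd5 and Il7r. The cause of these changes was otherwise not tested. Calls over all probe sets, 631 at first, ran from 109 to 667 without 1 array, and were 0 within either treatment, 28 without both WT arrays numbered 2, 161 with 4 group means, 985 after a second quantile normalization, 1604 with array weights, 1741 at an adjusted p under 0.1 and 1834 with the actin covariate.

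Id2 on 1435176_a_at stayed positive in 19 of 19 alternatives, from 0.91 to 1.30, and was called in 7. Sox4 on 1433575_at was called in 7 of 18, from −2.0 to −1.07, and left out by the filter on dim probe sets. Tcf12 on 1427670_a_at was called in 6 of 19, from −1.28 to −0.72. No probe set was called for TCDD in KO, for TCDD in WT or for the interaction under any alternative run for them. Deviations of same-numbered arrays correlated at 0.63 between WT TCDD and WT DMSO, and at −0.29 to 0.22 in the other pairs of groups. The labels name no source that a number shares across groups, and since not every pair was over 0.1, the numbers were not taken as a pairing of all arrays. Within WT, arrays of the same number correlated at 0.988 (number 1) and 0.986 (number 2) across treatments. Those of the same treatment correlated at 0.967 (TCDD) and 0.979 (DMSO). The main KO against WT fit took the WT arrays as independent, so its standard errors do not account for this likeness. A replicate block gave 2, 3 and 2 calls and 801 over all probe sets.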
